A study of Rattus norvegicus with 12 samples.

Results

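The genes described here build the perineuronal net and the wider extracellular matrix of the brain: the chondroitin sulfate proteoglycans Acan, Bcan, Ncan and Vcan, the link proteins Hapln1 and Hapln4, the tenascins Tnr and Tnc, and the hyaluronan synthases Has2 and Has3. Every non-control probe whose gene name in the array files was one of these 10 was taken, which gave 16 of the 30367 probes, and 10 of the 17858 genes named from RefSeq.

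The study measured prefrontal cortex of female Sprague-Dawley rats on Agilent 2-colour arrays, in 3 groups of 4 samples. In the betamethasone with ketamine group, the dams received 2 injections of betamethasone, a synthetic glucocorticoid, at 0.4 mg/kg each on gestational day 15, and the pups received ketamine, an NMDA receptor blocker, at 35 mg/kg on postnatal day 14. The betamethasone group had the same prenatal treatment and postnatal saline, and the control group had saline at both times. The labels name infantile spasms on postnatal day 14 without telling which groups had them, name no litter, and give sampling on postnatal day 15 in one field and another age in a second. Each array carried 2 animals of 1 group. The control arrays lay on a slide of their own and were read with another version of the extraction software. Slide, software version and prenatal treatment therefore cannot be told apart. Where no label says that samples came from separate litters, the p-values measure the spread between these samples.

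Perineuronal nets are lattices of matrix around the cell body and proximal dendrites of neurons, most of all of parvalbumin interneurons in the cortex. A hyaluronan chain made at the membrane by the hyaluronan synthases binds the lecticans (aggrecan, brevican, neurocan and versican), link proteins clamp that contact, and tenascin-R cross-links the lecticans at their far ends. In rodents the nets form over the first postnatal weeks, and their completion accompanies the end of critical periods, while neurocan and tenascin-C belong to the looser juvenile matrix.

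The probes are 60-base oligonucleotides, and what they read is set by where in a transcript they lie. One probe is shown for each of 5 genes, among those whose letters hold a single reading frame without a stop codon, to show what was hybridised; capitals mark that frame. They lie at chr1:134846027-134846595 (Acan, plus strand, a span longer than the probe), chr2:19629918-19629977 (Hapln1, plus strand), chr2:19714573-19714632 (Vcan, minus strand) and chr13:75344867-75344926 (Tnr, plus strand) of the rn4 build, and the Tnc probe has no rn4 position in the files.
Acan A_43_P12154: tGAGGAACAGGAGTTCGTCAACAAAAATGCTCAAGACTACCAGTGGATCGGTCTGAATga
Hapln1 A_64_P069729: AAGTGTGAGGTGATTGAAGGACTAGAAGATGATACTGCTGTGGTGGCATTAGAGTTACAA
Vcan A_44_P158798: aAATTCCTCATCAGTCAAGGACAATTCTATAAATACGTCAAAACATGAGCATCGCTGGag
Tnr A_64_P147649: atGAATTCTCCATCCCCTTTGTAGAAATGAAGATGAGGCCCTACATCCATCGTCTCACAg
Tnc A_43_P15638: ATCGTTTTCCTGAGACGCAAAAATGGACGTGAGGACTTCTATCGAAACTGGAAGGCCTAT

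Bcan, Hapln1, Hapln4, Tnr and Vcan each had more than 1 probe, and of those the brighter one over all samples leads the account. The brighter Tnr probe lies at chr13:75347093-75347152, with its start 2226 bases downstream of the start of the dimmer one. The brighter Vcan probe lies at chr2:19712767-19712826, the brighter Hapln1 probe at chr2:19637923-19637982, and the single Ncan probe at chr16:19810549-19810608. The 2 Bcan probes belong to transcript variants 1 and 2 in the array's annotation, at chr2:180067865-180067924 and chr2:180072872-180072931. In the RefSeq gene order of the GRCr8 assembly, each lectican gene has a link protein gene as its direct coding neighbour: Acan lies next to Hapln3, Bcan next to Hapln2, Ncan next to Hapln4, and Vcan next to Hapln1.

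Of the 42877 non-control spots per array, 71.4% to 81.5% were well above background by the scanner's flag in each sample and none was saturated; 2 arrays per group limit the precision. On the array of betamethasone with ketamine samples 1 and 2, 5.5% of the spots lay in departing areas, where at least 20% of the surrounding 15 by 15 spots read more than 1 log2 unit from the median of the other arrays, against 0.173% and 0.753% on the control arrays and 0 on the rest. The brighter Tnr probe and the Tnc probe lay in such areas on that array, so their ketamine differences are given with and without those spots, while counts and probe levels use all spots unless stated. All levels below are log2 intensities after normalization, and all differences are log2 differences.

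The matrix genes did not change beyond the threshold in any of the 3 comparisons. Of the 16 probes, 13 passed the filter on dim probes and were tested, which stood for 8 genes. None had an adjusted p under 0.05 (limma, adjusted over 21533 probes) between betamethasone and control, where 46 probes or 0.214% passed. None passed between betamethasone with ketamine and betamethasone, where 0 probes or 0.00% passed, nor between betamethasone with ketamine and control, where 17 probes or 0.0789% passed. Leaving out 1 sample or 1 array moved these counts of probes between 3 and 516, 0 and 2603, and 3 and 3524 in that order, with the highest of the last 2 without betamethasone with ketamine samples 3 and 4. At an unadjusted p under 0.05, 1 of the 13 stood apart between betamethasone and control (11.4% of all tested probes), 0 between betamethasone with ketamine and betamethasone (3.16%), and 1 between betamethasone with ketamine and control (13.9%). The arrays measure tissue, so fewer cells of a type and less RNA per cell cannot be told apart.

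Between betamethasone and control, the 13 differences ran from -0.40 to 0.28 with a median of 0.05, and 6 lay below 0, beside a median of 0.03 and 43.7% below 0 over all tested probes. Between betamethasone with ketamine and betamethasone they ran from -0.58 to 0.31 with a median of -0.03, and 7 lay below 0, beside 0.05 and 36.8% over all tested probes. Between betamethasone with ketamine and control they ran from -0.98 to 0.29 with a median of 0.05, and 6 lay below 0, beside 0.07 and 36.0%. That median is the value of the dimmer Hapln4 probe, which passed the filter on dim probes only through the ketamine group. The same probe is counted above 0 in both comparisons with ketamine, where its differences carry no support for a change. With the spots of departing areas left out, the ranges of the comparisons with ketamine were -0.34 to 0.31 against betamethasone and -0.26 to 0.29 against control. The half-width of the 95% interval of a member's difference was between 0.17 and 0.87. Taking only the brighter or single probe of each of the 8 genes, 5 lay below 0 between betamethasone and control (median -0.07). Between betamethasone with ketamine and betamethasone 6 did (median -0.11), and between betamethasone with ketamine and control 5 did (median -0.17). Over the brightest probes of all genes tested, 44%, 37.1% and 36.2% lay below 0, with medians of 0.03, 0.05 and 0.07. These counts use all spots, also those of Tnr and Tnc in departing areas. Each pair of these comparisons shares a group of samples.

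**Figure D1:**
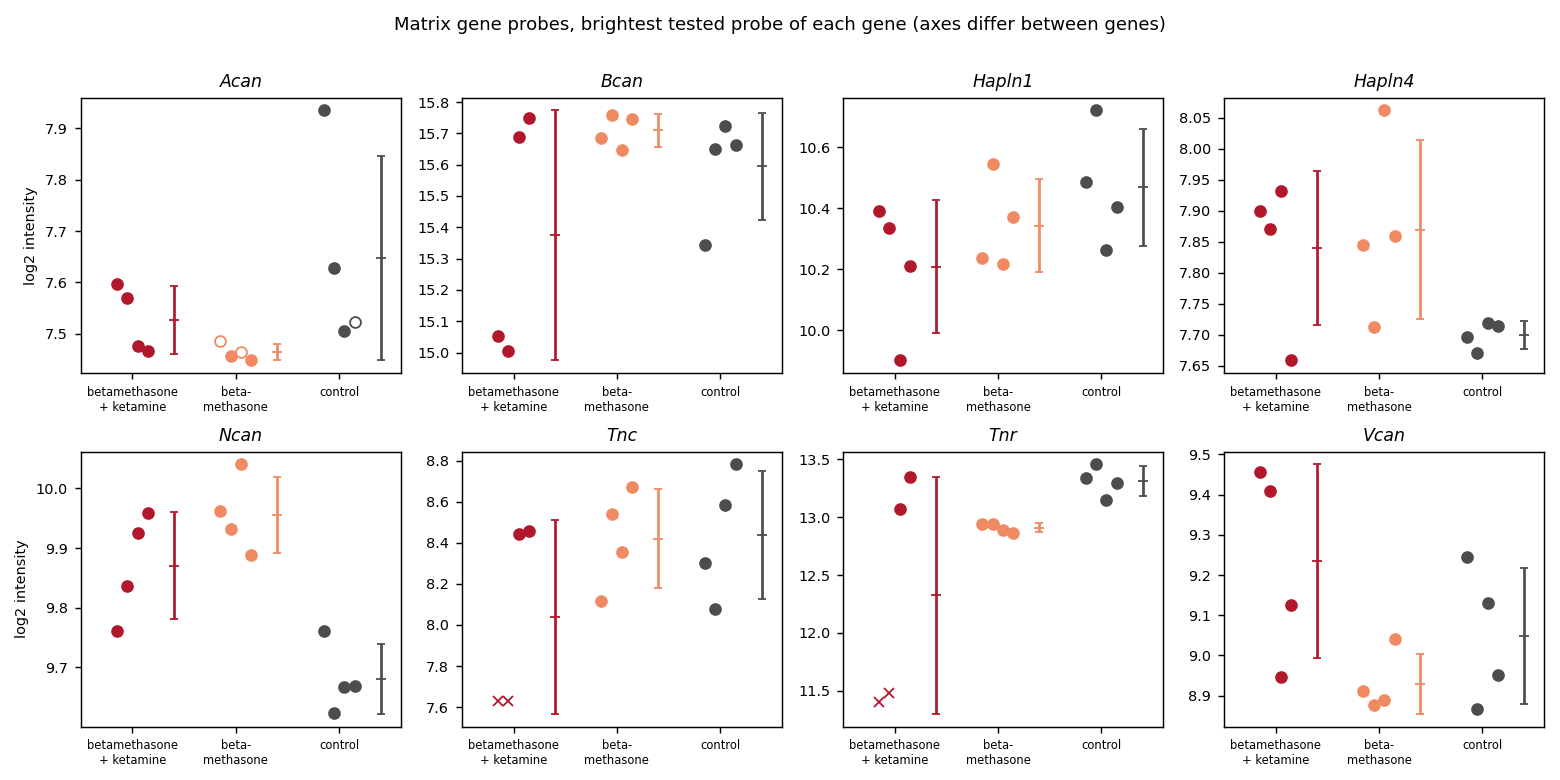
Log2 intensity (vertical axis, scaled per gene) of the brightest tested probe of 8 matrix genes in each sample, by group, with the group mean and SD beside the points. Open points were not well above background, and crosses lie in the departing areas of the array of betamethasone with ketamine samples 1 and 2, where Tnr reads 11.40 and 11.48 against 13.07 and 13.35 in samples 3 and 4.

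Neurocan, the secreted lectican of the juvenile brain, was the member with the smallest p of betamethasone against control. The Ncan probe read 9.76, 9.84, 9.93 and 9.96 in betamethasone with ketamine samples. It read 9.96, 9.93, 10.04 and 9.89 in betamethasone samples, against 9.76, 9.62, 9.67 and 9.67 in controls. Every betamethasone sample lay above every control sample, while the ketamine samples spread across the gap between them and the lowest of them fell just inside the control range. Betamethasone and control means differed by 0.28 (SE 0.09, 95% interval 0.07 to 0.48), with an unadjusted p of 0.0145 and an adjusted p of 0.302 (limma). The difference was 0.19 between betamethasone with ketamine and control (interval -0.02 to 0.40, adjusted p = 0.395, limma) and -0.09 between betamethasone with ketamine and betamethasone (interval -0.29 to 0.12, adjusted p = 0.918, limma).

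Without the array as a random block, the adjusted p of betamethasone against control for Ncan was 0.0411 with a difference of 0.28, a fit that takes the 2 animals of an array as independent. Of the 13 tested probes, 3 or 23.1% had betamethasone and control samples that did not overlap, beside 17.5% of all tested probes. Ncan was the one that lay higher, and 10.4% of all tested probes did so. The brighter Tnr probe and the Acan probe lay lower without overlap, as did 7.16% of all tested probes. Neither of the other comparisons had a member whose samples did not overlap, beside 4.02% of all tested probes for betamethasone with ketamine against betamethasone (2.68% higher and 1.33% lower) and 15.6% for betamethasone with ketamine against control (11.9% higher and 3.66% lower).

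Aggrecan, the proteoglycan most tightly tied to mature perineuronal nets, read close to background. The Acan probe read 7.60, 7.57, 7.48 and 7.47 in betamethasone with ketamine samples, of which 4 were well above background. It read 7.49, 7.46, 7.46 and 7.45 in betamethasone samples, of which 2 were well above background. Controls had 7.93, 7.63, 7.51 and 7.52, of which 3 were. Control sample 1 was the highest of the 12 and widened the control spread to an SD of 0.20, against 0.02 in the betamethasone group. Betamethasone differed from control by -0.18 (interval -0.45 to 0.08, adjusted p = 0.601, limma). On the scanner's own processed signals that difference was -0.90 (adjusted p = 0.301, limma), and it was -0.05 without control samples 1 and 2. Betamethasone with ketamine differed from betamethasone by 0.06 (interval -0.20 to 0.33), which was 0.49 on processed signals and 0.70 without quantile normalization between arrays. It differed from control by -0.12 (interval -0.39 to 0.14), which was -0.41 on processed signals and 0.01 without control samples 1 and 2.

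Brevican, which astrocytes and oligodendrocyte precursors make and which exists in a secreted and a membrane-anchored form, was measured for both transcript variants. The variant 1 probe read 15.05, 15.01, 15.69 and 15.75 in betamethasone with ketamine samples, 15.69, 15.76, 15.65 and 15.75 in betamethasone samples, and 15.34, 15.65, 15.72 and 15.66 in controls. The 2 lowest values of the 12 were those of ketamine samples 1 and 2, on the array with departing areas, and samples 3 and 4 sat among the betamethasone samples. Around that spot 14.7% of the spots departed on that array, under the 20% used to define such an area. Relative to betamethasone, betamethasone with ketamine differed by -0.34 (interval -0.75 to 0.08, adjusted p = 0.909, limma), and by 0.01 without ketamine samples 1 and 2. The difference from control was -0.22 (interval -0.64 to 0.20), and 0.12 without those samples. With those samples as the whole ketamine group, and samples 3 and 4 left out, the differences were -0.68 from betamethasone and -0.57 from control (adjusted p = 0.00874 and 0.0164, limma). Of the fits with samples or arrays left out, that fit had the most passing probes over the whole array in both comparisons.

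The variant 2 probe of Bcan read 10.18, 9.50, 10.49 and 10.52 in betamethasone with ketamine samples, against 10.48, 10.45, 10.52 and 10.50 in betamethasone samples. Controls had 10.45, 10.55, 10.30 and 9.96. Its betamethasone samples lay close together, and both the ketamine and the control samples reached lower. Betamethasone with ketamine differed from betamethasone by -0.31 (interval -0.89 to 0.26), and by 0.02 without ketamine samples 1 and 2. With all samples, both Bcan probes gave differences of like sign in each comparison, 0.11 (interval -0.30 to 0.53) and 0.17 (interval -0.40 to 0.75) between betamethasone and control and -0.22 and -0.14 between betamethasone with ketamine and control, with variant 1 first. For variant 2, the difference between betamethasone with ketamine and control was 0.19 without ketamine samples 1 and 2, and that between betamethasone and control was -0.01 without control samples 3 and 4.

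Versican, a large lectican of early development and of oligodendrocyte precursors, was read by 2 probes that lie 1806 bases apart. The brighter Vcan probe read 9.46, 9.41, 8.95 and 9.13 in betamethasone with ketamine samples, against 8.91, 8.88, 8.89 and 9.04 in betamethasone samples. Controls had 9.24, 8.87, 9.13 and 8.95. All 4 ketamine samples lay above the mean of the betamethasone samples, though the groups overlapped, and the 2 highest came from 1 array. Relative to betamethasone, betamethasone with ketamine differed by 0.31 (SE 0.17, interval -0.08 to 0.69, adjusted p = 0.909, limma), and by 0.11 without ketamine samples 1 and 2. Without samples 3 and 4 it was 0.50 (adjusted p = 0.0386, limma). Among fits with samples or arrays left out, that fit had the most passing probes in this comparison. Around this Vcan probe 0% of the spots departed on the array of samples 1 and 2, and the part of that array in the difference was not tested. The brighter probe differed by -0.12 between betamethasone and control (interval -0.50 to 0.26) and by 0.19 between betamethasone with ketamine and control (interval -0.19 to 0.57).

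The dimmer Vcan probe, whose sequence is shown above, read 8.77, 8.72, 8.47 and 8.66 in betamethasone with ketamine samples, 8.31, 8.50, 8.41 and 8.68 in betamethasone samples, and 8.30, 8.24, 8.56 and 8.55 in controls. Here too ketamine samples 1 and 2 were the highest of the 12. Betamethasone with ketamine differed by 0.18 from betamethasone (interval -0.13 to 0.48) and by 0.24 from control (interval -0.06 to 0.55), and neither passed. Without ketamine samples 1 and 2 these were 0.09 and 0.15.

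**Figure D2:**
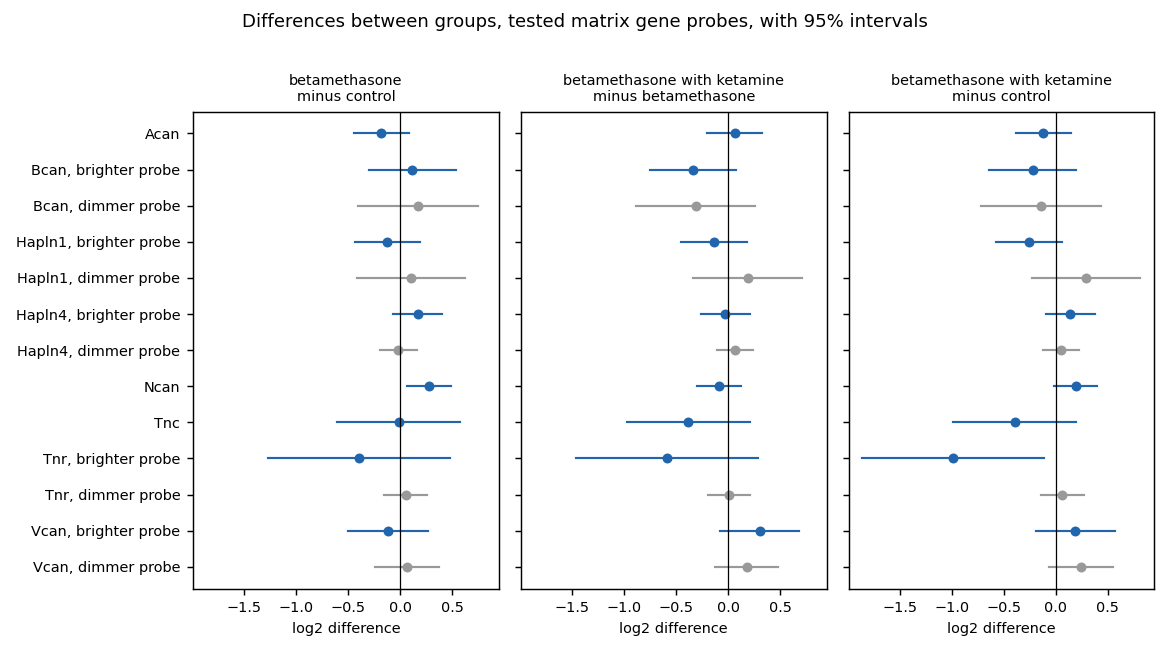
Log2 difference (horizontal axis) with its 95% interval for each of the 13 tested probes, a panel per comparison; blue marks the brighter or single probe of a gene and grey the dimmer one. Intervals clear of 0 belong to Ncan between betamethasone and control and to the brighter Tnr probe between betamethasone with ketamine and control, and neither passed after adjustment.

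The link proteins, which fix lecticans to hyaluronan, were read by 5 probes, and 4 of them were tested. The brighter Hapln1 probe read 10.39, 10.34, 9.90 and 10.21 in betamethasone with ketamine samples, against 10.24, 10.55, 10.22 and 10.37 in betamethasone samples. Controls had 10.49, 10.72, 10.27 and 10.40. The groups overlapped, and ketamine sample 3 was the lowest of the 12. Relative to control, betamethasone with ketamine differed by -0.26 (interval -0.57 to 0.05, adjusted p = 0.430, limma), betamethasone differed from control by -0.13 (interval -0.44 to 0.19), and betamethasone with ketamine from betamethasone by -0.13 (interval -0.45 to 0.18). Without ketamine samples 1 and 2 both ketamine differences were larger, -0.41 from control (adjusted p = 0.193, limma) and -0.29 from betamethasone, and neither passed.

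The dimmer tested Hapln1 probe gave the opposite sign in each comparison with all samples. It read 8.87, 8.81, 8.50 and 8.42 in betamethasone with ketamine samples, 8.19, 8.74, 8.29 and 8.61 in betamethasone samples, and 8.48, 8.09, 8.43 and 8.43 in controls. Ketamine samples 1 and 2 were the highest of the 12, and control sample 2 was the lowest. The differences were 0.29 between betamethasone with ketamine and control (interval -0.23 to 0.81), 0.10 between betamethasone and control (interval -0.42 to 0.63), and 0.19 between betamethasone with ketamine and betamethasone (interval -0.33 to 0.71). Without ketamine samples 1 and 2, the difference from control was 0.10 and that from betamethasone -0.002. Without quantile normalization between arrays, betamethasone differed from control by -0.03 on the dimmer Hapln1 probe and by 0.09 on the brighter one. The other Hapln1 probe was not well above background in any of the 12 samples, with readings from 7.23 to 7.38, and was not tested.

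Hapln4, the link protein found with brevican in perineuronal nets of the mouse hindbrain, was read by a pair of probes 3951 bases apart. The brighter one read 7.90, 7.87, 7.93 and 7.66 in betamethasone with ketamine samples, against 7.84, 7.71, 8.06 and 7.86 in betamethasone samples. Controls had 7.70, 7.67, 7.72 and 7.71 and lay close together, with an SD of 0.02 against 0.12 in the ketamine group and 0.14 in the betamethasone group. Betamethasone differed from control by 0.17 (interval -0.07 to 0.40, adjusted p = 0.583, limma), and betamethasone with ketamine differed from control by 0.14 (interval -0.09 to 0.38) and from betamethasone by -0.03 (interval -0.26 to 0.21). The difference between betamethasone and control was -0.28 when arrays were not quantile normalized and 0.56 on processed signals (unadjusted p = 0.0494, adjusted p = 0.331, limma). Its size and direction thus differed between ways of processing, and the cause was not tested. The difference between betamethasone with ketamine and control was 0.56 on processed signals (adjusted p = 0.252, limma). The median over all tested probes on those signals was 0.11 between betamethasone and control and 0.19 between betamethasone with ketamine and control.

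The dimmer Hapln4 probe was well above background in 3 betamethasone with ketamine, 2 betamethasone and 1 control sample. It thus passed the filter on dim probes only through the ketamine group, which also had its highest mean. Its ketamine differences therefore carry no support for a change. It read 7.61, 7.60, 7.44 and 7.42 in betamethasone with ketamine samples, 7.43, 7.44, 7.45 and 7.46 in betamethasone samples, and 7.42, 7.49, 7.48 and 7.48 in controls. The 2 animals of the first ketamine array stood above the other 10 samples, and its difference between betamethasone with ketamine and betamethasone was 0.07 (interval -0.11 to 0.24). That difference was 0.70 without quantile normalization and 0.56 on processed signals. On the dimmer Hapln4 probe, betamethasone with ketamine differed from control by 0.05, and by 0.59 on processed signals. Betamethasone differed from control by -0.02 on this probe, by -0.72 without quantile normalization and by 0.04 on processed signals.

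Tenascin-R, the glycoprotein that cross-links lecticans in the net and is made largely by oligodendrocytes and some interneurons, had the widest range over the 12 samples of the tested probes. The brighter Tnr probe read 11.40, 11.48, 13.07 and 13.35 in betamethasone with ketamine samples. It read 12.95, 12.94, 12.89 and 12.86 in betamethasone samples, against 13.34, 13.46, 13.14 and 13.30 in controls. Every betamethasone sample lay below every control sample, and the ketamine samples fell into a pair far below and a pair that reached the control range. The low pair was the array with departing areas, where 27.4% of the spots around this one departed from the other arrays.

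With all spots, Tnr differed by -0.98 between betamethasone with ketamine and control (interval -1.86 to -0.11, unadjusted p = 0.0307, adjusted p = 0.326, limma). With the spots of the departing areas left out, which drops ketamine samples 1 and 2 for this probe, that difference was -0.10 (adjusted p = 0.756, limma). Betamethasone with ketamine differed from betamethasone by -0.58 (interval -1.46 to 0.29, adjusted p = 0.909, limma) with all spots, and by 0.30 (adjusted p = 0.964, limma) with those spots left out. Without ketamine samples 3 and 4, which leaves the ketamine group with the array that has departing areas, it was -1.47 (adjusted p = 2.30e-05, limma), and -1.87 against control (adjusted p = 4.40e-06, limma). That fit also had the most passing probes over the whole array, of those with samples or arrays left out. The difference between betamethasone with ketamine and betamethasone thus changed sign with the ketamine array that was used.

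The difference of Tnr between betamethasone and control does not use that array, and was -0.40 either way (interval -1.27 to 0.47 with all spots). Its SE was 0.40 with all spots (adjusted p = 0.763) and 0.11 with those spots left out (adjusted p = 0.185, limma). When betamethasone and control samples were fitted alone its adjusted p was 0.0726, and it was 0.0561 without ketamine samples 1 and 2 and 0.0452 without samples 3 and 4 (limma). Without quantile normalization between arrays the difference was 0.01. Of the genes of myelinating oligodendrocytes, a cell type that makes tenascin-R, 9 of 9 tested had a difference below 0 in the same comparison, beside 43.7% of all tested probes. Their median was -0.54, and 0 of them passed. Their mean log2 level ran from 9.55 to 10.17 in betamethasone samples and from 10.20 to 10.79 in controls. Between betamethasone with ketamine and control, 8 of these 9 genes lay below 0 with a median of -0.47, beside 36.0% of all tested probes. Tnr differed there by -0.10 with the spots of departing areas left out. Of the parvalbumin interneuron genes, 9 of 13 lay below 0 between betamethasone and control (median -0.12), and 8 of 13 between betamethasone with ketamine and control (median -0.02). Of the oligodendrocyte precursor genes, 5 of 7 lay below 0 between betamethasone and control (median -0.09). Between betamethasone with ketamine and control 5 of 7 did so too (median -0.11). The part of any of these lists in the Tnr difference was not tested.

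The dimmer Tnr probe, whose sequence is shown above, did not follow the brighter one. It read 7.91, 7.89, 7.98 and 7.98 in betamethasone with ketamine samples, 8.03, 7.87, 7.97 and 7.85 in betamethasone samples, and 7.92, 7.98, 7.80 and 7.82 in controls. The 3 groups overlapped, and its differences were 0.05 between betamethasone and control (interval -0.15 to 0.26), 0.01 between betamethasone with ketamine and betamethasone, and 0.06 between betamethasone with ketamine and control. On processed signals the dimmer Tnr probe differed by 0.23 between betamethasone and control and by 0.50 between betamethasone with ketamine and control (adjusted p = 0.469 and 0.110, limma), and without quantile normalization by -0.35 between betamethasone and control. Around it 0.448% of the spots departed on the first ketamine array.

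Tenascin-C, a matrix glycoprotein of the developing brain and of radial glia and astrocytes, was read by a single probe. It read 7.63, 7.63, 8.44 and 8.46 in betamethasone with ketamine samples, against 8.12, 8.54, 8.35 and 8.67 in betamethasone samples. Controls had 8.30, 8.08, 8.58 and 8.78. The same pair of ketamine samples was the lowest of the 12, in an area where 40.6% of the spots departed. Relative to betamethasone, betamethasone with ketamine differed by -0.38 (interval -0.97 to 0.21, adjusted p = 0.909, limma) with all spots and by 0.03 with those spots, and so both samples, left out. Against control the differences were -0.40 (interval -0.99 to 0.19) and 0.01. Without ketamine samples 3 and 4 the difference from control was -0.81 (adjusted p = 0.0422, limma), in the fit with the most passing probes of those with samples or arrays left out. Betamethasone differed from control by -0.02 (interval -0.61 to 0.58).

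**Figure D3:**
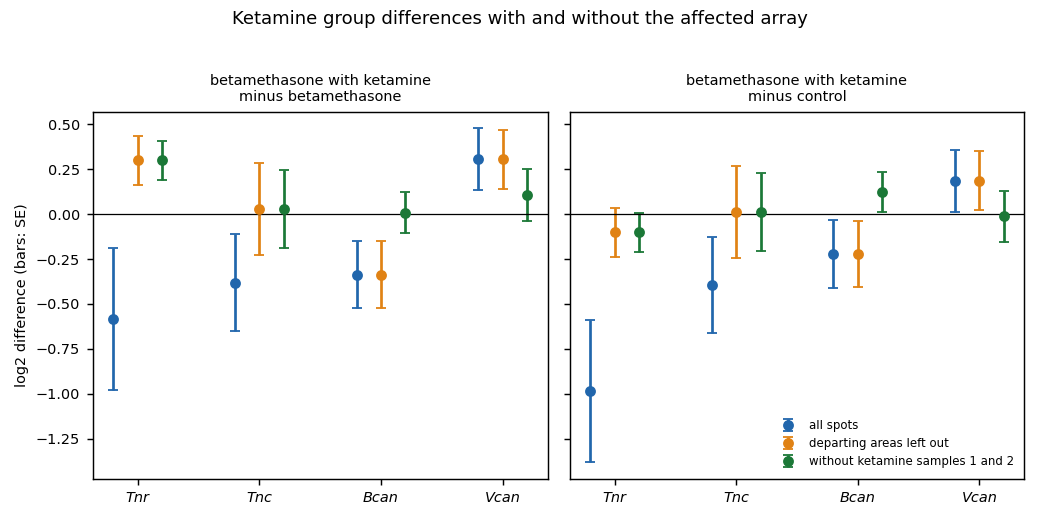
Log2 difference (vertical axis, bars are SE) of the brighter or single probes of Tnr, Tnc, Bcan and Vcan, with all spots, with spots in departing areas left out, and without ketamine samples 1 and 2. The Tnr difference between betamethasone with ketamine and betamethasone lies at -0.58 with all spots and at 0.30 in both other settings, and Bcan at -0.34, -0.34 and 0.01.

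The hyaluronan synthases, which spin the backbone of the net, could not be compared. The Has3 probe was not well above background in any of the 12 samples, with readings from 7.05 to 7.28. The Has2 probe was so in 1, betamethasone with ketamine sample 2, and read from 7.19 to 7.45. Neither entered the test, and no difference was detectable at these intensities. Has1, the remaining synthase, was measured in all groups with means of 9.07 ± 0.08 in betamethasone with ketamine, 8.94 ± 0.13 in betamethasone and 9.04 ± 0.08 in control samples (SD, n = 4 each), and did not pass in any comparison.

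Probes of the same gene differed in how well they tracked each other. Across the 12 samples the correlation between the paired probes was 0.68 for Bcan, 0.63 for Vcan, 0.24 for Hapln4, 0.11 for Tnr and -0.03 for Hapln1. Over the 10 samples without ketamine samples 1 and 2 it was 0.0073 for Bcan, 0.26 for Vcan, -0.12 for Hapln4, 0.03 for Tnr and -0.10 for Hapln1. The signs of the 3 differences matched in 3 of 3 comparisons for Bcan, 2 for Vcan, 1 for Hapln4 and 0 for both Tnr and Hapln1. These correlations are descriptions over samples that share arrays in pairs, and none carries a test.

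**Figure D4:**
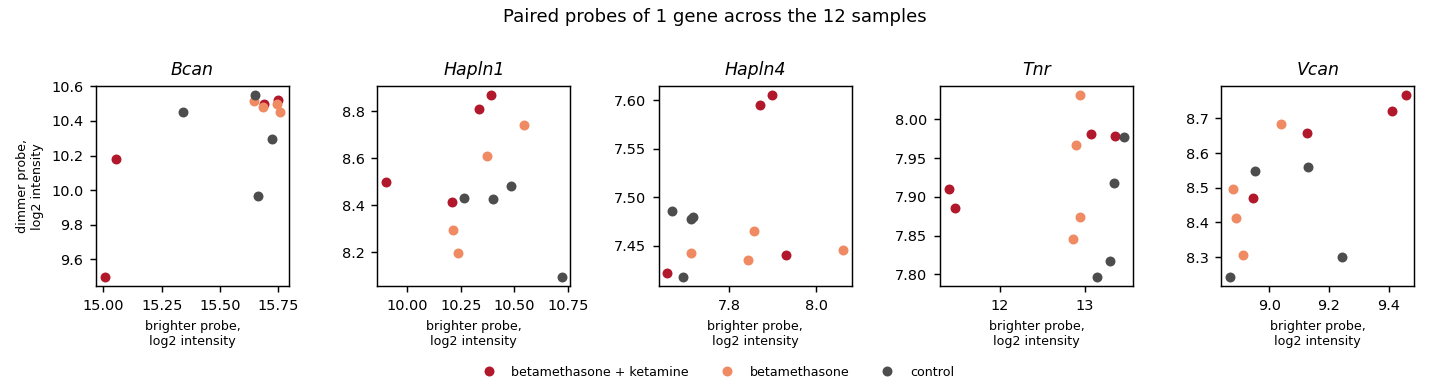
Log2 intensity of the dimmer probe (vertical axis) against the brighter probe (horizontal axis) of each gene with a tested pair, 1 point per sample, coloured by group. The points of Bcan and Vcan run upward, with correlations of 0.68 and 0.63 (0.0073 and 0.26 without ketamine samples 1 and 2), while those of Hapln1 and Tnr do not, with -0.03 and 0.11.

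After group means were subtracted, the brighter probes of Bcan and Tnr moved together across the 12 samples (r = 0.89), as did those of Bcan and Tnc (0.80) and of Tnc and Tnr (0.70), while Vcan ran opposite to Bcan (-0.79) and to Tnr (-0.76). Without the array of ketamine samples 1 and 2 and with group means taken again, these were -0.13, 0.39, -0.49, -0.42 and -0.14, each weaker or of opposite sign. Not all pairs weakened without that array: Acan with Bcan went from -0.65 to -0.94, and Hapln1 with Tnr from -0.42 to 0.81. Control sample 1 had the highest Acan value of the 12 (7.93) and the lowest Bcan value outside that array (15.34), and Acan read close to background. Ncan and its neighbour Hapln4 had a correlation of 0.05, and Vcan and its neighbour Hapln1 of 0.33. Of 13003 genes compared in the same way, those most like Tnr were Sipa1l2 (0.99), Smdt1 (0.99) and Letm2 (0.99), which fell to 0.71, 0.62 and 0.64 without that array. Those most like Ncan were Spem1 (0.95), Ptpre (0.94) and Acin1 (0.93). Most like Bcan were Ebpl, Champ1 and Pcdh20 (each between 0.97 and 0.98), and most like Acan were Farp2 (0.97), Trim44 (0.96) and Ino80d (0.95). Vcan was closest to Htr2a (0.96), Nipal2 (0.96) and Hspa13 (0.95), Tnc to Fam185a (0.98), Zfp692 (0.98) and Vps16 (0.97), Hapln1 to Lgals7 (0.95), Jpt2 (0.95) and Akap10 (0.94), and Hapln4 to Klf12 (0.94), Cybb (0.90) and Arhgef5 (0.89). Without that array the values of these genes other than those named for Tnr lay between 0.87 and 0.98. The 12 points share an array in pairs, and nothing follows from these values about function or control.

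No gene among other matrix cores, link proteins and hyaluronan synthases passed in any comparison, of 15 tested out of 17. Their median differences were 0.02 between betamethasone and control, 0.04 between betamethasone with ketamine and betamethasone, and 0.03 between betamethasone with ketamine and control, beside 0.03, 0.05 and 0.07 over all tested probes. Cspg5, the neuronal proteoglycan neuroglycan C, had the largest difference, with means of 10.63 in betamethasone with ketamine, 10.36 in betamethasone and 11.27 in control samples. It differed by -0.91 between betamethasone and control (SE 0.37, unadjusted p = 0.0328, adjusted p = 0.391, limma) and by -0.64 between betamethasone with ketamine and control. Sema3a, a guidance cue that perineuronal nets hold, averaged 8.19 in betamethasone with ketamine, 8.13 in betamethasone and 7.92 in control samples, and differed by 0.27 between betamethasone with ketamine and control (SE 0.08, unadjusted p = 0.00923, adjusted p = 0.263, limma) and by 0.21 between betamethasone and control.

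Spock1, a testican proteoglycan, averaged 10.87 in betamethasone with ketamine, 10.81 in betamethasone and 10.36 in control samples, differences of 0.51 for betamethasone with ketamine and 0.45 for betamethasone from control (adjusted p = 0.317 and 0.422, limma). Ptprz1, the receptor phosphatase whose secreted form is phosphacan, averaged 12.18 in betamethasone with ketamine, 12.02 in betamethasone and 11.78 in control samples, differences of 0.40 (adjusted p = 0.366, limma) and 0.24 from control. The link proteins beside the lectican genes did not pass in any comparison: Hapln2 averaged 7.89 in betamethasone with ketamine, 7.85 in betamethasone and 7.95 in control samples, and Hapln3 averaged 9.01 in betamethasone with ketamine, 9.14 in betamethasone and 8.98 in control samples. Otx2, the homeoprotein that nets take up, was not well above background in any sample.

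Of the enzymes that build and sulfate chondroitin sulfate chains, 16 of 20 were tested and 0 passed in any comparison, with medians of -0.02, 0.02 and 0.05 in the order of comparisons above. B3gat3, which completes the linker that joins the chain to its core protein, averaged 12.02 in betamethasone with ketamine, 12.28 in betamethasone and 11.67 in control samples, a difference of 0.60 between betamethasone and control (unadjusted p = 0.0273, adjusted p = 0.369, limma). Csgalnact1, which starts the chain, differed by 0.27 in that comparison. Xylt2, which attaches the first sugar, differed by 0.37 between betamethasone with ketamine and control, and Chsy1, a chain polymerase, by -0.30 (adjusted p = 0.306 for both, limma). The Chsy1 probe lay in a departing area on the first ketamine array. Chst14, a dermatan sulfotransferase, had the smallest p in this list between betamethasone with ketamine and betamethasone, with a difference of 0.24 (adjusted p = 0.909, limma). Chst3 and Chst11, which place 6-O and 4-O sulfates, were not well above background in any sample. Other sulfotransferases of this list, among them Chst7, Chst12 and Chst13, were tested and did not pass.

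Of the matrix proteases, hyaluronidases and their inhibitors, 15 of 20 were tested and 0 passed in any comparison, with medians of 0.07, -0.07 and -0.00057 in the same order of comparisons. Timp2, an inhibitor of matrix metalloproteinases, came closest, with means of 13.74 in betamethasone with ketamine, 13.70 in betamethasone and 13.33 in control samples. It differed by 0.42 between betamethasone with ketamine and control (SE 0.10, unadjusted p = 0.00201, adjusted p = 0.182, limma) and by 0.37 between betamethasone and control (adjusted p = 0.207, limma). Hyal2, a hyaluronidase, differed by 0.39 between betamethasone and control (adjusted p = 0.376, limma). Adamts9 and Adamts5, proteases that cut lecticans, differed by -0.95 and -0.38 between betamethasone with ketamine and betamethasone, but both probes lay in departing areas on the first ketamine array, and the part of those areas was not tested. Adamts4 was well above background in 1 of the 12 samples and Mmp9, which cleaves matrix at synapses, in 0.

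Of the receptors of matrix proteoglycans, tenascins and hyaluronan, 11 of 14 were tested and 0 passed, with medians of 0.03, 0.15 and 0.12 in that order of comparisons. Rtn4rl1, a Nogo receptor relative that binds chondroitin sulfate, differed by 0.37 between betamethasone with ketamine and control (unadjusted p = 0.0275, adjusted p = 0.324, limma) and by 0.26 between betamethasone with ketamine and betamethasone. Rtn4rl2 differed by -0.48 between betamethasone and control, Ptprd by 0.32 between betamethasone with ketamine and betamethasone, and Itgb1 by 0.33 between betamethasone with ketamine and control. Cd44, the hyaluronan receptor, averaged 8.06, 7.94 and 8.07 in betamethasone with ketamine, betamethasone and control samples.

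Markers of the cells that make or carry the matrix were present, and 0 of them passed in any comparison. Excitatory neuron genes were well above background in all 12 samples for 10 of 10 listed, and parvalbumin interneuron genes for 11 of 13. Pvalb averaged 11.31 in betamethasone with ketamine, 11.83 in betamethasone and 11.86 in control samples, in a departing area on the first ketamine array, and the mean level of the list ran from 10.40 to 10.61 in betamethasone with ketamine, 10.47 to 10.58 in betamethasone and 10.53 to 10.79 in control samples. The median difference of that list was -0.12 between betamethasone and control, 0.05 between betamethasone with ketamine and betamethasone, and -0.02 between betamethasone with ketamine and control.

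Among the other cells, the astrocyte list ran from 12.69 to 12.89 in betamethasone with ketamine, from 12.56 to 12.75 in betamethasone and from 12.55 to 12.63 in control samples, and 5 of its 10 genes lay below 0 between betamethasone and control, with a median of 0.13. The microglia list ran from 11.02 to 11.18 in betamethasone with ketamine, 10.87 to 10.98 in betamethasone and 10.65 to 10.95 in control samples. In both ketamine comparisons 1 of its 10 genes lay below 0, beside 36.8% (against betamethasone) and 36.0% (against control) of all tested probes. Between betamethasone and control 3 of the 10 lay below 0 (median 0.14), beside 43.7% of all tested probes. Oligodendrocyte precursors, a source of brevican and versican, had median differences of -0.09 between betamethasone and control, 0.04 between betamethasone with ketamine and betamethasone, and -0.11 between betamethasone with ketamine and control. Leading markers of the lists (Pvalb, Kcnc1, Sst, Vip, Slc17a7, Neurod6, Gfap, Aqp4, Pdgfra, Cspg4, Mbp, Aif1, Cx3cr1, Cldn5, Pecam1, Col1a1, Col1a2, Ttr, Foxj1, Drd2 and Adora2a) had adjusted p-values of 0.301 or more in each comparison (limma). The part of these cell type differences in the matrix values was not tested.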

How the data were processed

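The deposited scanner files hold 2-colour intensity values per spot, with the local background, quality flags and probe positions on rn4. Per the file headers, controls were read with Agilent Feature Extraction 11.5.1.1 and both betamethasone groups with 11.0.1.1 (the submitters' processing notes name 10.7.3.1). Differences from control, also those on processed signals, thus compare output of different software versions. A deposited value table held background-subtracted signals per sample, scaled before deposit to a ratio with a median of 1 in each column. Each column followed the scanner signal of a single channel, so these were not ratios between the channels of an array. Apart from the scaling, its control columns 1 and 2 equalled the scanner values of control animals 3 and 4, and vice versa. The value table therefore served as an alternative. Gene lists and members were chosen with earlier results of these data known.

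The mean signal was background-corrected with normexp (offset 50), arrays were normalized by loess within and Aquantile between arrays (limma 3.58.1, R 4.3.3), and each channel became 1 sample of log2 values computed from the deposited intensities. Spots of a probe were averaged and outlier spots left out. Probes for which a group had at least 3 of its 4 samples well above background, with at least 3 values per group, were tested (21533 probes) with group and dye as terms and the array as a random block (correlation 0.555), Benjamini-Hochberg adjustment over all of them and a threshold of 0.05. Departing areas were spots with at least 20% of the 15 by 15 surrounding spots more than 1 log2 unit from the median of the other arrays. The genes named were all members, per list and comparison the 2 with the smallest p, the first 2 tested markers of each cell type list (1 marker and 1 probe sequence are not reported here), and a set of 12 genes of the net. The script was tested on simulated data. Same-numbered samples of different groups had correlated deviations between -0.0635 and 0.0964, so the numbers were not taken as pairs.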

Additional observations from a re-analysis of the deposited data

Results flagged for a closer look

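Of 48 groups of 4 samples (each member probe in each group), 2 held a sample that stood far from the other 3 by Dixon's test; chance flags about 1 in 20 groups. In the dimmer Hapln1 probe, control replicate 2 read 8.09, against 8.43 for the nearest other control and 8.48 for the highest. In the dimmer Hapln4 probe, control replicate 1 read 7.42, against 7.48 and 7.49. Neither probe leads its gene, and neither passed in any comparison.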

How the results depend on the processing

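No tested member passed under the main settings, and of 258 values under other settings, for the 24 differences of the brighter or single probes of 8 genes, 246 kept their direction and their side of the threshold. Ncan between betamethasone and control passed without the array block (0.276, adjusted p = 0.0411, limma). The counts of probes passing, for betamethasone against control, betamethasone with ketamine against betamethasone, and betamethasone with ketamine against control, were 46, 0 and 17. They were 85, 4 and 157 on processed signals, 0, 0 and 0 without quantile normalization, 88, 1 and 42 without the filter on dim probes, 1035, 1 and 863 without the array block, 215, 0 and 2 with the 2 groups alone, 1, 0 and 1 on array means, 85, 0 and 28 with departing areas left out, and 12, 0 and 5 on the deposited value table. With a replicate block they were 4, 0 and 10; the numbers share no label that pairs animals. Leaving out a sample or an array gave 3 to 516, 0 to 2603 and 3 to 3524.

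Processed signals moved the median of all probes between betamethasone with ketamine and control to 0.191, from 0.0718, and Bcan there was 0.189. Without quantile normalization, Hapln1 was 0.0898, Hapln4 -0.278 and Tnr 0.0068 between betamethasone and control, and Hapln4 0.395 and Tnc 0.1 between betamethasone with ketamine and betamethasone. Tnc between betamethasone and control was 0.0212 on processed signals and 0.0402 on the value table. With departing areas left out, Tnr was 0.299 and Tnc 0.0293 between betamethasone with ketamine and betamethasone, and Tnc 0.0132 between betamethasone with ketamine and control; fewer ketamine samples entered. The dimmer probes are not in that count; among their reversals, between betamethasone and control, Hapln1 was -0.0285 and Tnr -0.35 without quantile normalization and Hapln4 0.0378 on processed signals. The cause of the other reversals was not tested.

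With samples or arrays left out, differences between betamethasone and control ran from -0.261 to 0.00948 for Hapln1 and from -0.263 to 0.231 for Tnc. Those between betamethasone with ketamine and betamethasone ran from -0.681 to 0.00857 for Bcan, -0.288 to 0.0198 for Hapln1, -0.12 to 0.0618 for Hapln4, -0.791 to 0.0293 for Tnc and -1.47 to 0.299 for Tnr. Those between betamethasone with ketamine and control ran from -0.254 to 0.0133 for Acan, -0.566 to 0.123 for Bcan, -0.807 to 0.0132 for Tnc and -0.0122 to 0.385 for Vcan. Low intensity limits Acan, the dimmer Hapln4 probe, Has2 and Has3. The brighter Hapln4 probe (7.66 to 8.06) and the dimmer Tnr probe (7.80 to 8.03) also read low, though both were well above background in all 12 samples.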
